A study of Homo sapiens with 2 samples.

Results

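The AP-1 transcription factor genes were examined in the H3K27ac HiChIP data of HCT116 cells. The 8 genes were JUN, JUNB, JUND, FOS, FOSB, FOSL1, FOSL2 and ATF3. Promoters were taken as the window of ± 2.5 kb around a transcription start site, and the contacts of a gene were the counts between an anchor overlapping this window and a different anchor up to 1 Mb away on the same chromosome. All 8 genes had such an anchor, among 16465 protein-coding genes with one. They held 10 promoter anchors of 250217 anchors in total, and 345 loops of the 1765994 loops up to 1 Mb. FOSL1 had a pair of promoter anchors, and ATF3 had 1 anchor overlapping the window of each of its upstream and downstream start sites.

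HCT116 is an established cell line of human colorectal carcinoma. Both libraries came from untreated cells in standard medium, as replicates 1 and 2 of 1 condition, so no condition could be compared with another. HiChIP joins DNA ends that lie close together in the nucleus and then enriches them with an antibody, here against acetylated lysine 27 of histone H3, a mark of active promoters and enhancers. A count therefore reflects both contact and acetylation, and it is not a level of expression. The total counts were 1885481 and 2131466, and the AP-1 promoters held 0.0302% and 0.0298% of the counts up to 1 Mb. The labels do not say that the replicates were separate cultures, so tests cover only the spread of counts in these 2 libraries. Of the 8 measured genes of colorectal epithelium in a marker list of 9, all 8 lay above the median of all genes in counts per kb of promoter anchor, compared with 1 of 4 blood genes, 1 of 3 fibroblast genes and 0 of 2 hepatocyte genes. The 1 measured neuronal gene also lay above it. By summed counts, EPCAM (26), CDH1 (15), VIL1 (14) and LGALS4 (14) lay below the median of 29 over all genes. KRT8, KRT18, KRT19 and CDX2 lay above that median, as did the fibroblast genes DCN (83) and COL1A1 (33) and the neuronal gene SYT1 (38).

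AP-1 is a dimer of basic leucine zipper proteins. JUN, JUNB and JUND can pair with themselves or with a FOS protein, whereas FOS, FOSB, FOSL1 and FOSL2 need a JUN partner, and ATF3 belongs to the related ATF branch. The dimers bind the TPA response element (TRE), written TGACTCA or TGAGTCA on either strand, or the cyclic AMP response element (CRE), written TGACGTCA. FOS, FOSB, JUN, JUNB and ATF3 are known as genes that growth factors and stress induce rapidly, and FOSL1 is a target of the MAP kinase pathway.

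The promoters of several members held elements identical or close in letters to the TRE and the CRE. They are shown because they lie in the promoter anchors from which the loops below start, except for ATF3. The upstream promoter anchor of ATF3 begins at chr1:212739020, downstream of the printed sequence. The RefSeq promoter sequences span 250 bases before to 50 after a start site, 7 of the 8 genes had an entry, and each sequence matched hg19 once, which gave the positions below. Capitals mark the motif, sequences run 5′ to 3′ along the strand of the gene, and both strands were searched.
JUN promoter, chr1:59249752-59249811, minus strand: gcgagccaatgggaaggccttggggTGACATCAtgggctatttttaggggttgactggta
ATF3 upstream promoter, chr1:212738601-212738660, plus strand: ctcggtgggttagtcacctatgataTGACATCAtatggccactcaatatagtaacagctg
JUND promoter, chr19:18392598-18392657, minus strand: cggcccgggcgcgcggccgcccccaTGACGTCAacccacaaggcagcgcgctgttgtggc
FOS promoter, chr14:75745442-75745501, plus strand: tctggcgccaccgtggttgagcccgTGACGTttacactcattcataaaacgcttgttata
FOSB promoter, chr19:45971169-45971228, plus strand: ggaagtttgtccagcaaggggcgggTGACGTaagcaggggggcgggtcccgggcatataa
FOSL2 start site, chr2:28615719-28615745, plus strand: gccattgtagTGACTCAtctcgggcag

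JUN and ATF3 shared the variant TGACATCA, which began 67 and 123 bases before the start site and was found, on either strand, in 2.61% of 35116 RefSeq promoters. The full CRE of JUND began 200 bases before its start and occurred in 1.85% of promoters. FOS and FOSB held the shorter TGACGT, 64 and 60 bases before the start, which occurred as TGACGT or ACGTCA in 7.98% of promoters and overlaps the CRE. JUND held, apart from its CRE, an ACGTCA 87 bases before its start. FOSL2 also held TGACGT 66 bases before its start, and its TRE began at base 5 of the transcript. A TRE was found in 4.95% of promoters. The window of JUNB held none of these motifs. No CArG box, the element of serum response factor, was found in the windows of the 7 genes, compared with 1.29% of all promoters. With so rare an element, its absence from 7 windows does not set these genes apart from other promoters. Sequence outside the windows was not searched for it, so an element further upstream of a start site could not be seen.

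FOSL1 had the most promoter contacts of the 8 genes, and FOSB and JUND the fewest. The counts of the JUN genes in replicates 1 and 2 were 29 and 29 for JUN, 34 and 41 for JUNB, and 19 and 29 for JUND. Among the FOS genes they were 42 and 49 for FOS, 19 and 26 for FOSB, 84 and 93 for FOSL1, and 53 and 49 for FOSL2. ATF3 had 49 and 59 counts, of which its upstream promoter held 15 and 17 and its downstream promoter 35 and 44, with counts between the 2 promoters entering both. All 8 summed counts were above the median of 29 over all protein-coding genes, and the interquartile range of those genes was 18 to 44. In the order FOSL1, ATF3, FOSL2, FOS, JUNB, JUN, JUND, FOSB, the exact Poisson intervals of neighbours overlapped except between FOSL1 (177 counts, 95% interval 152 to 205) and ATF3 (108 counts, 88.6 to 130). The first place of FOSL1 rests on both of its promoter anchors, since with the start site ± 1 kb its mean per replicate fell from 88.5 to 46.5, below ATF3 with 54.0 and FOSL2 with 51.0. With ± 5 kb, JUN rose from a mean of 29.0 to 59.5 and ATF3 from 54.0 to 96.0.

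A wide anchor collects more counts, and the anchors differed from 2.34 kb for FOSB to 13.1 kb for FOSL2. On the scale of summed counts per kb of promoter anchor, FOSL1 had 36.2, FOS 24.99 and FOSB 19.3, each above 96% of all genes. JUN, JUND and ATF3 lay together at 12.2, 12.3 and 12.5 counts per kb. JUNB with 7.85 and FOSL2 with 7.82 were close to the median of 7.30 over all genes. FOSB thus moved from the lowest place by counts to the third place by density, and FOSL2 from the third to the last. The JUN anchor also held the start of LINC01135, the FOSL2 anchor that of FOSL2-AS1 and the JUNB anchor that of a noncoding gene. The JUNB anchor also overlapped the body of PRDX2. The contacts of these other genes cannot be told apart from those of JUN, FOSL2 and JUNB.

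**Figure D1:**
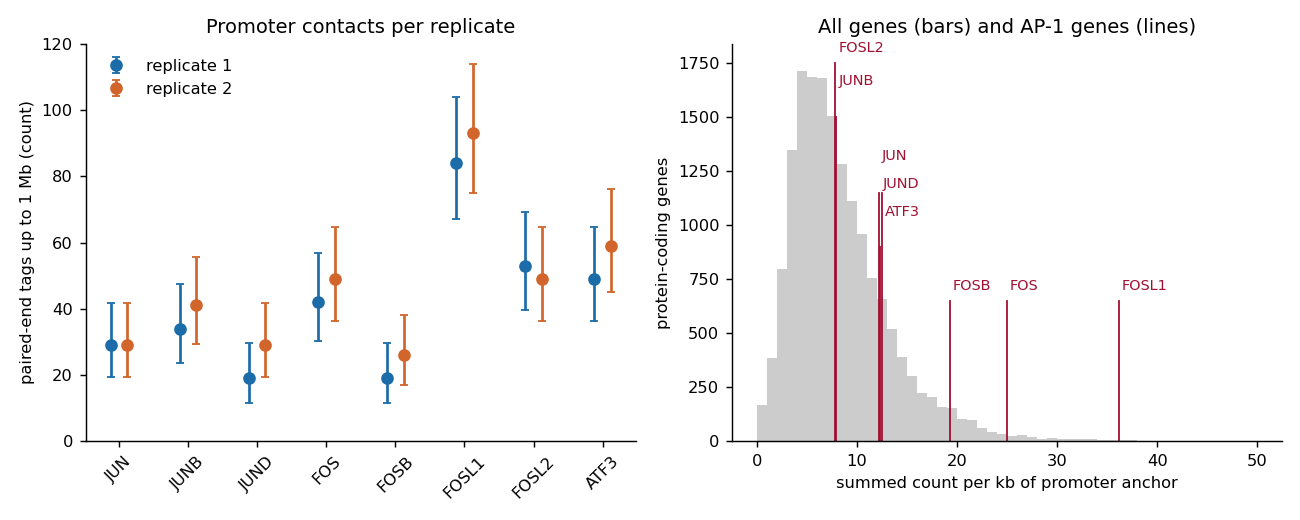
The left panel plots the count of paired-end tags up to 1 Mb of each AP-1 promoter in both replicates, with exact Poisson 95% intervals. The right panel plots all 16465 protein-coding genes by summed count per kb of promoter anchor as bars, with the AP-1 genes as lines, and FOSL1 at 36.2 lies at the far right, whereas FOSL2 and JUNB lie close to the median of 7.30.

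The replicates gave like counts. No AP-1 gene differed between replicates in its share of the library (exact binomial test with Benjamini-Hochberg adjustment over 11614 genes, 0 of 8 also at an unadjusted p under 0.05), against a background of 0.0% of genes called and 513 genes at an unadjusted p under 0.05. Of the 345 loops, 71 had counts in both replicates, that is 20.6% compared with 11.3% of all loops up to 1 Mb. A single count made up 231 loops, or 67.0%, compared with 81.7% of all loops. Most single loops of the AP-1 promoters therefore rest on 1 read pair.

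Loops with a summed count of at least 5 were called strong. All 8 genes had at least 1 strong loop, 21 in all, and each of the 21 had counts in both replicates. This held for 36.8% of all genes and for 82.0% of the 3999 genes with at least the 45 counts of FOSB, a depth chosen after the data were seen. A strong loop at 20 kb or more was present at 5 of the 8 genes, namely JUNB, FOSB, FOSL1, FOSL2 and ATF3, compared with 11.7% of all genes and 38.0% of those 3999 genes. With replicate 2 alone no AP-1 gene had a distal loop of 5 counts (background 3.26%), and with replicate 1 alone 3 had one (background 1.91%). With a minimum of 3 summed counts 8 genes had a distal loop (background 44.3%), and with a minimum of 8, 2 had one (background 2.67%).

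**Figure D2:**
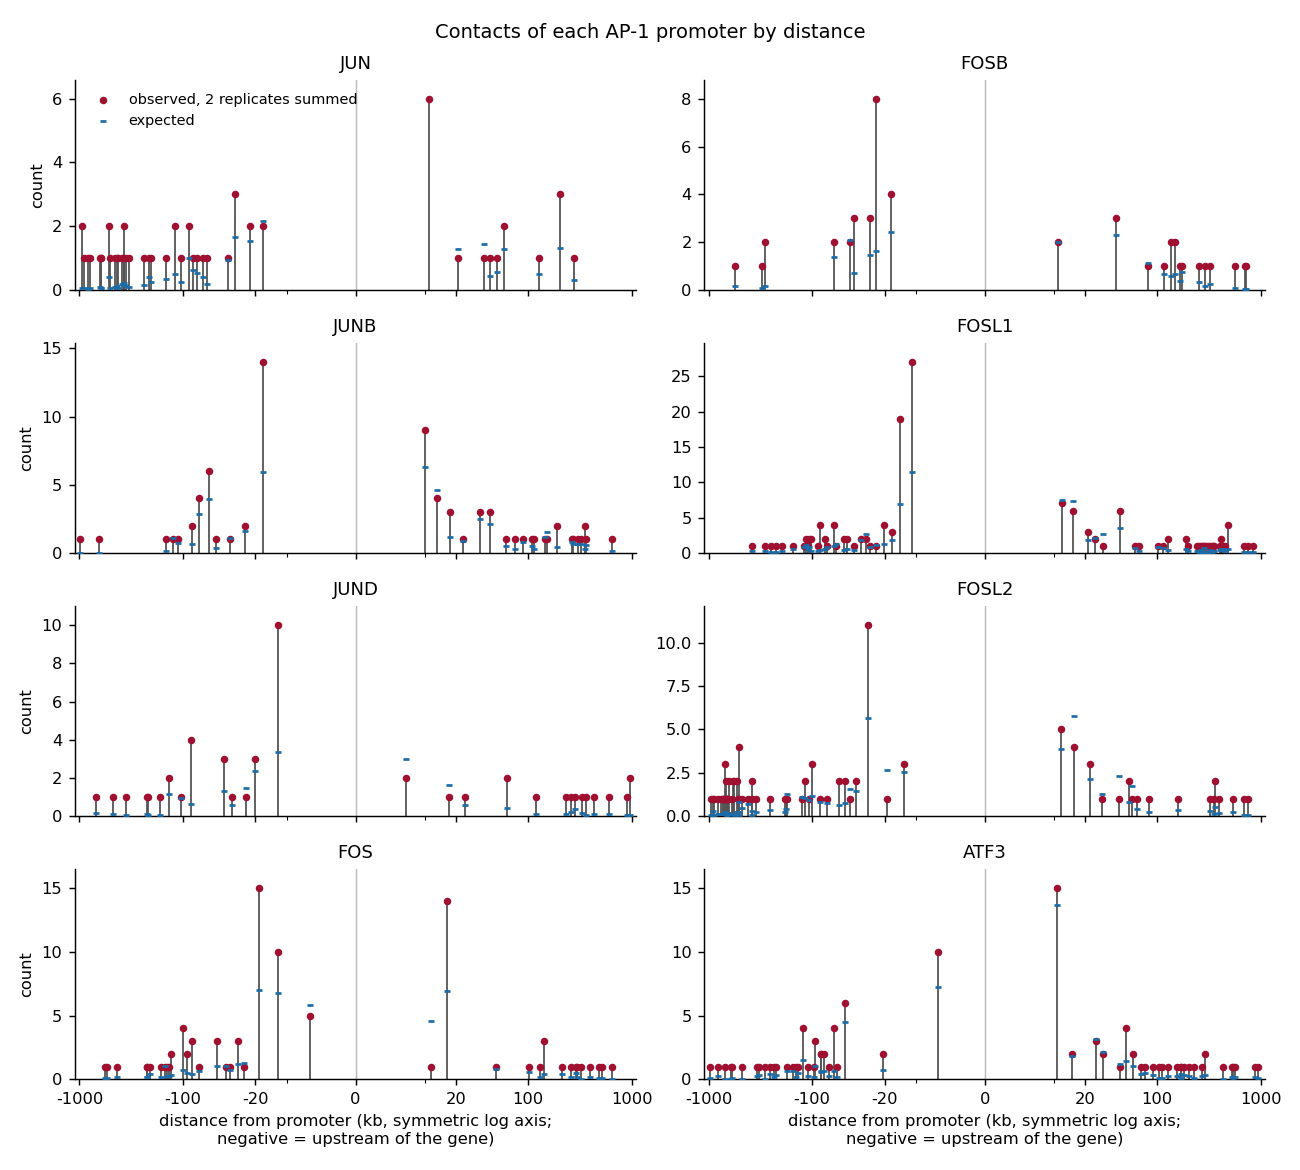
Each panel plots the loops of 1 AP-1 gene by the distance from its promoter anchor in kb on a symmetric log axis, with negative values upstream of the gene (for ATF3, of its upstream start site). Points give the count of both replicates summed and blue dashes the expected count given the distance and the anchors. The loop between the FOSL1 promoter anchors is not drawn. The tallest loops lie within 60 kb, and rows of single counts continue beyond 100 kb, with 26 loops upstream of FOSL2, 22 downstream of FOSL1 and 19 upstream of JUN.

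Counts were compared with those expected from the distance of the anchors and from their depth. Of the 2235 anchor pairs at the AP-1 promoters, 0 exceeded this expectation (one-sided Poisson test, Benjamini-Hochberg adjusted p under 0.01 over all 51094598 pairs), and 51 had an unadjusted p under 0.05. Over all pairs, 37, or 7.24e-05%, were called at the adjusted threshold, and no background is given for the unadjusted 51. Compared with distance alone, 15 AP-1 loops were called against a background of 0.0104%, and with replicate 1 or 2 alone 8 and 6 were called, against 0.00259% and 0.00352%. Of the 21 strong loops, 8 had a Poisson interval wholly above the expected count (38.1%, compared with 40.02% of all 28958 strong loops), and their median ratio of observed to expected was 1.51, compared with 2.29. A ratio below is given with its 95% counting interval, without adjustment for the number of loops, and the named loops were taken for their high counts.

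**Figure D3:**
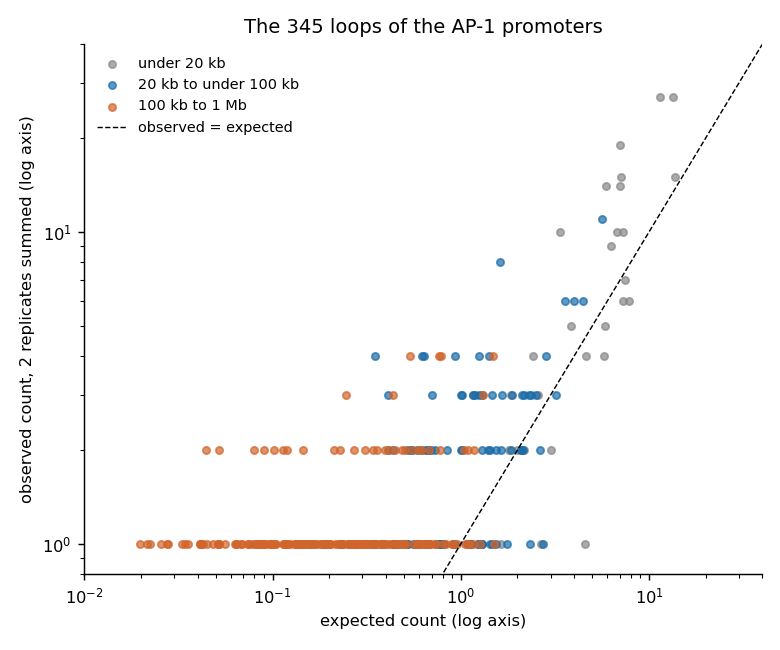
The plot shows the 345 loops of the AP-1 promoters, with the count expected from distance and depth on the x axis and the summed observed count on the y axis, both as log axes, coloured by distance. The loops with the highest counts lie within 20 kb and within about 3-fold of the dashed line of equality, while at over 100 kb most points are single counts over an expectation below 1, and anchor pairs without a count are not drawn.

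JUN had 41 loops, of which 1 was strong. The strong loop reached an intergenic anchor 11.04 kb downstream with 2 and 4 counts, 0.77 times the expected count (0.28 to 1.68). Beyond 20 kb, an intergenic anchor 31.6 kb upstream had 2 and 1 counts, a ratio of 1.80 (0.37 to 5.27), and an intergenic anchor 88.2 kb upstream had 1 and 1 counts, a ratio of 2.00 (0.24 to 7.23). None of these 3 loops exceeded the expected count by its interval.

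JUNB lies in a gene-dense stretch of chromosome 19, and its strong loops ended at promoters of other genes. The anchor at the promoter of HOOK2, an adaptor of microtubule motors, lay 16.97 kb upstream and had 7 and 7 counts, 2.36 times the expected count (1.29 to 3.96). The anchor with the promoters of PRDX2, a peroxide-reducing enzyme, and THSD8 lay 10.0 kb downstream with 4 and 5 counts, a ratio of 1.43 (0.65 to 2.72). The distal loop spanned 56.4 kb to the anchor of GET3, which delivers tail-anchored proteins to membranes, and TRIR, with 5 and 1 counts and a ratio of 1.51 (0.55 to 3.28). The promoter of TNPO2, a nuclear import receptor, had 3 and 1 counts at 69.95 kb, an anchor within RTBDN had 2 and 1 at 33.97 kb downstream, and the highest loop from 100 kb had 0 and 2 at 191.3 kb, with ratios of 1.41 (0.38 to 3.60), 1.20 (0.25 to 3.51) and 4.46 (0.54 to 16.1). Of these loops, the HOOK2 loop alone was above the expected count by its interval. With its own count kept in the depth of the anchors, its ratio was 1.55 (0.85 to 2.6). The start sites of HOOK2 and PRDX2 lie on either side of that of JUNB.

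JUND had its strong loop at an intergenic anchor 11.95 kb upstream with 5 and 5 counts, 2.96 times the expected count (1.42 to 5.44). At 83.3 kb upstream, an anchor within PGPEP1, which encodes a peptidase, had 2 and 2 counts where 0.624 were expected, a ratio of 6.41 (1.75 to 16.4). The promoter of LSM4, a component of the spliceosomal U6 particle, had 3 and 0 counts at 40.4 kb, and an intergenic anchor at 20.01 kb had 1 and 2, with ratios of 2.32 (0.48 to 6.78) and 1.28 (0.26 to 3.73). The highest loop from 100 kb led 971.7 kb downstream to the promoter of DDA1, with 1 and 1 counts where 0.0442 were expected, a ratio of 45.2 (5.48 to 163) on 2 counts. JUNB and JUND lie 5.49 Mb apart on chromosome 19, and no count joined their promoters. The other 3 pairs of AP-1 genes on 1 chromosome, JUN with ATF3 and FOSB with JUNB or JUND, also had 0 counts, which allows up to 3 counts each.

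FOS had 4 strong loops, all within 20 kb. An anchor 18.3 kb upstream, which holds only the starts of noncoding transcripts, had 5 and 10 counts, 2.13 times the expected count (1.19 to 3.51). The anchor of LINC01220, 16.5 kb downstream, had 4 and 10 counts and a ratio of 2.01 (1.10 to 3.37). The replicates were less alike at an anchor 12.1 kb upstream, with 9 and 1 counts. The nearest strong loop, 6.63 kb upstream, had 2 and 3 counts and a ratio of 0.86 (0.28 to 2.00). Beyond 100 kb, the promoter of TMED10, a cargo receptor of the early secretory pathway, had 2 and 2 counts where 0.764 were expected, a ratio of 5.24 (1.43 to 13.4). Intergenic anchors upstream at 29.2 and 46.7 kb had 1 and 2 and 2 and 1 counts, with ratios of 2.52 (0.52 to 7.37) and 2.96 (0.61 to 8.65). JDP2 and BATF, neighbouring genes of the same zipper superfamily, had 0 counts with FOS, where 0.53 and 0.21 were expected, so a contact was not detectable at this depth.

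FOSB had the highest ratio among the strong loops of the 8 genes. An intergenic anchor 24.1 kb upstream, chr19:45945658-45947870, had 5 and 3 counts where 1.61 were expected, a ratio of 4.98 (2.15 to 9.82). Further anchors upstream at 27.8 kb and 39.1 kb each had 1 and 2 counts, and the promoter of GPR4, a proton-sensing receptor, had 1 and 1 counts at 134.3 kb downstream, a ratio of 3.35 (0.41 to 12.1). Between 20 and 100 kb, FOSB had 18 counts upstream, 2.01 times the expected number (1.19 to 3.18), and 4 counts downstream, where 8.52 were expected.

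FOSL1 had 6 strong loops, the most of the 8 genes. Its promoter anchors were joined to each other over 3.41 kb by 13 and 14 counts, 2.01 times the expected count (1.32 to 2.92). Both also contacted a single upstream anchor at the end of C11orf68, chr11:65678515-65684877. This anchor had 15 and 12 counts with the outer promoter anchor, a ratio of 2.37 (1.56 to 3.44), and 11 and 8 counts with the anchor at the start site, a ratio of 2.72 (1.64 to 4.24). These 2 loops share a target and are not independent. On the other side, the anchor with the promoters of CCDC85B and FIBP was contacted at 12.03 and 15.4 kb with ratios of 0.94 and 0.82. The distal strong loop reached the shared promoter anchor of CFL1, which encodes cofilin, and MUS81, a DNA junction endonuclease, at 43.7 kb with 2 and 4 counts and a ratio of 1.69 (0.62 to 3.67). The anchor with the promoters of C11orf68 and DRAP1 had 2 and 2 counts at 20.2 kb, a ratio of 3.21 (0.87 to 8.21). The promoter of SART1, a splicing factor, had 2 and 2 counts at 61.7 kb, a ratio of 4.29 (1.17 to 11), and that of the noncoding RNA NEAT1 had 0 and 4 counts at 478.9 kb, 7.42 times the expected count (2.02 to 19.0) in replicate 2 only.

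FOSL2 had its highest loop at a wide intergenic anchor 28.7 kb upstream, chr2:28581317-28594266, with 7 and 4 counts and a ratio of 1.95 (0.97 to 3.48). A second strong loop stayed within the gene, 11.8 kb downstream of the promoter, with 2 and 3 counts. A further loop within the gene, 15.8 kb downstream, had 3 and 1 counts and a ratio of 0.70, and another at 22.3 kb had 1 and 2 counts and a ratio of 1.39 (0.29 to 4.06). A far longer loop led 503.1 kb upstream to the shared promoter of BABAM2, a member of a BRCA1 complex, and RBKS, which encodes ribokinase. It had 1 and 3 counts where 0.788 were expected, a ratio of 5.08 (1.38 to 13.01).

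ATF3 used an anchor upstream of its upstream promoter with both of its promoters. This anchor, chr1:212731504-212735739, had 6 and 4 counts with the upstream promoter at 6.82 kb and 4 and 2 counts with the downstream promoter at 47.6 kb, with ratios of 1.38 (0.66 to 2.53) and 1.34 (0.49 to 2.92). An anchor between the promoters, 10.8 kb from the downstream one, had the highest count of the gene with 10 and 5 counts, a ratio of 1.10 (0.61 to 1.81). None of the 3 strong loops was above the expected count by its interval. An anchor at LINC01740, 61.4 kb from the downstream promoter, had 2 and 2 counts and a ratio of 6.31 (1.72 to 16.2). Anchors at 50.2 kb downstream and 122.8 kb upstream also had 2 and 2 counts, with ratios of 2.85 (0.78 to 7.29) and 2.69 (0.73 to 6.89).

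Partner anchors of the strong loops were searched for the TRE. The site closest to the centre of the anchor is shown for 7 of the 8 anchors that held one to give its sequence context at a contacted region, with the TRE in capitals and the plus strand of hg19 printed.
JUN, 11.04 kb, intergenic, chr1:59239729-59239789: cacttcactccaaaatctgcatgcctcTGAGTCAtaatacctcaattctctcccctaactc
JUNB, 10.0 kb, within PRDX2 and outside its exons, chr19:12912142-12912202: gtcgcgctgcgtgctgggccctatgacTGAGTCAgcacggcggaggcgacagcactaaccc
JUND, 11.95 kb, intergenic, chr19:18404397-18404457: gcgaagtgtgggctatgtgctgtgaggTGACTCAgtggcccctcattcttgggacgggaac
FOSL1, 10.9 kb, intergenic, chr11:65680552-65680612: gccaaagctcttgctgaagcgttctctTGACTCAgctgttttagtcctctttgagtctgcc
FOSL2, 28.7 kb, intergenic, chr2:28587691-28587751: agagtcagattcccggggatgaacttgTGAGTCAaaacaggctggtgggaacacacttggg
ATF3, 10.8 kb, intron of ATF3, chr1:212770486-212770546: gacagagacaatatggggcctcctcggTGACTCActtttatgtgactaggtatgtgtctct
ATF3, 6.82 and 47.6 kb, exon of a noncoding gene, chr1:212732359-212732385: gcggtccgggTGAGTCAccggccccgc

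The printed JUNB site also lies within the annotated spans of HOOK2 and a noncoding gene. The FOSL1 and FOSL2 anchors each held 5 TRE sites, and the ATF3 anchors held 4 and 2. Of the 4 FOS anchors, 1 held a TRE. Of the 5 anchors contacted at 20 kb or more, those of FOSL2 and ATF3 held a TRE, while those of JUNB, FOSB and FOSL1 held none. Over the 17 partner anchors the density was 0.236 sites per kb, from 21 sites in 89.0 kb. It was 0.198 per kb in the 7584 partner anchors of strong loops of other genes and 0.178 per kb over all anchors. A TRE was present in 47.1%, 52.6% and 39.9% of these anchors, so the AP-1 partners lay between both references by this share. With replicate 1 alone the AP-1 partners had 0.359 sites per kb over 10 anchors and with replicate 2 alone 0.387 over 7, compared with 0.207 and 0.205 at the other genes. The promoter anchors of the 8 genes themselves held 0.118 sites per kb, with 2 sites at FOSL1, 2 at FOSL2, 1 at JUNB, 1 at ATF3 and 0 at the other 4 genes. These are descriptions without a test, and a matching letter string is not a bound site.

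The distance of the contacts differed widely among the 8 genes. Counts at 20 kb or more made up 49.7% at FOSL1, 50.5% at FOS, 72.9% at JUND, 86.2% at JUN, 86.7% at FOSB and 87.3% at FOSL2. They were 45 of 75 counts at JUNB and 81 of 108 at ATF3. The share expected from distance and depth followed a broadly similar order, with 55.6% at FOS and 58.5% at FOSL1 as the lowest and 88.4% at FOSB as the highest. No AP-1 gene was called for a share unlike the expected one (exact binomial test with adjustment over 11614 genes, background 0.0947%), and 1 of 8, FOSL1, had an unadjusted p under 0.05 (p = 0.0219, adjusted p = 0.620). An unadjusted p under 0.05 was found for 813 of the 11614 genes. Compared with distance alone, FOS and FOSL1 were called for fewer distal counts, with 73.6% and 80.7% expected, against a background of 3.44% of genes. At 100 kb to 1 Mb, FOSL1 had 46 counts where 63.4 were expected, a ratio of 0.73 (0.53 to 0.97).

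FOSL2 and JUN were called for contacts leaning to the upstream side. For FOSL2, 74 of 102 counts, or 72.5%, lay upstream, with 40 of 53 and 34 of 49 in the replicates, compared with 50.0% expected (exact binomial test, adjusted p = 0.00107). For JUN, 41 of 58 counts, or 70.7%, lay upstream, with 18 of 29 and 23 of 29 in the replicates, compared with 46.4% expected (exact binomial test, adjusted p = 0.0199). The 2 of 8 calls stand against a background of 2.44% of the 11581 genes tested. FOSL1 had 60.7% upstream compared with 48.9% expected, and missed the threshold (exact binomial test, adjusted p = 0.103). The other 5 genes had observed shares between 46.7% and 67.0%, and their expected shares lay between 39.0% and 59.3%. At ATF3 the side was taken from its upstream start site, so anchors between its promoters counted as downstream. Its downstream promoter alone had 26 and 30 counts upstream and 9 and 14 downstream in replicates 1 and 2. The share of this promoter was not tested against an expected one.

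Both calls changed with the replicates and the range used. With replicate 1 alone, FOSL2 was called (exact binomial test, adjusted p = 0.0272, background 0.936%) and JUN was not (adjusted p = 0.769). With replicate 2 alone, JUN was called (exact binomial test, adjusted p = 0.0157, background 1.17%) and FOSL2 was not (adjusted p = 0.212). Each replicate held 29 counts of JUN. Of these, 62.1% lay upstream compared with 50.0% expected in replicate 1, and 79.3% compared with 43.5% in replicate 2. The cause of this difference was not tested. With contacts limited to 500 kb, neither was called, although 62.1% and 63.8% of the counts still lay upstream (exact binomial test, adjusted p = 0.313 and 0.195, background 1.58%). Compared with distance alone, FOSL2 was called and JUN was not (exact binomial test, adjusted p = 0.153), against a background of 5.29%.

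**Figure D4:**
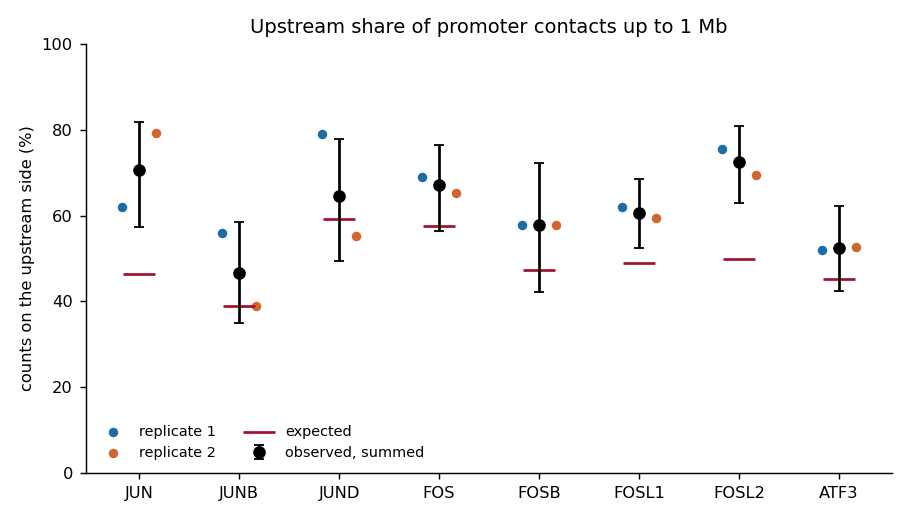
The y axis gives the percent of counts up to 1 Mb that lay upstream of each AP-1 gene (for ATF3, of its upstream start site). Black points give both replicates summed with exact binomial 95% intervals, coloured points give the replicates, and red bars give the share expected from distance and depth. The interval lies above the red bar at FOSL2 (72.5% compared with 50.0%), JUN (70.7% compared with 46.4%) and FOSL1 (60.7% compared with 48.9%).

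The distance bands, chosen after this result was seen and given without a test, show where these counts lay. Their expected counts keep the own count of each pair in the depth, unlike those of the single loops above. Between 500 kb and 1 Mb upstream, FOSL2 had 14 and 19 counts, 33 in all where 8.26 were expected, a ratio of 4.00 (2.75 to 5.61). On the downstream side of the same band it had 1 and 2 counts where 6.58 were expected. The 33 upstream counts formed 23 loops from 503.1 to 945.6 kb, of which 4 were seen in both replicates and none had more than 4 counts. They fell across chr2:27669949-28117253, a stretch from IFT172 over GCKR, ZNF512, GPN1, SUPT7L and SLC4A1AP to RBKS and BABAM2. The excess was thus spread over many anchors and was not carried by a single loop. Between 100 and 500 kb, FOSL2 had 14 counts upstream where 17.1 were expected and 6 downstream where 16.4 were expected, a ratio of 0.37 (0.13 to 0.80).

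JUN had 7 and 4 counts between 500 kb and 1 Mb upstream, 11 in all where 3.60 were expected, a ratio of 3.06 (1.53 to 5.47), and 0 downstream where 2.91 were expected. They formed 9 loops, of which 1 was seen in both replicates. The partner anchors lay in or beside FGGY, which encodes a carbohydrate kinase, on chr1:59752431-60199194. Between 100 and 500 kb, JUN had 16 counts upstream where 9.35 were expected and 5 downstream where 8.62 were expected, and both intervals included the expected count. FOSL1 had 49 upstream counts below 20 kb where 30.5 were expected and 28 between 20 and 100 kb where 16.3 were expected. Further upstream it had 14 between 100 and 500 kb where 19.1 were expected and 0 beyond 500 kb where 6.72 were expected. ATF3 had 24 counts between 20 and 100 kb upstream, a ratio of 1.69 (1.08 to 2.51). Its distances were taken from the promoter anchor of each loop, and the side from its upstream start site. The 24 counts thus include the 4 and 2 counts of the anchor 47.6 kb from its downstream promoter, which lies closer to its upstream one. FOS had 1 count between 20 and 100 kb downstream where 7.52 were expected.

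**Figure D5:**
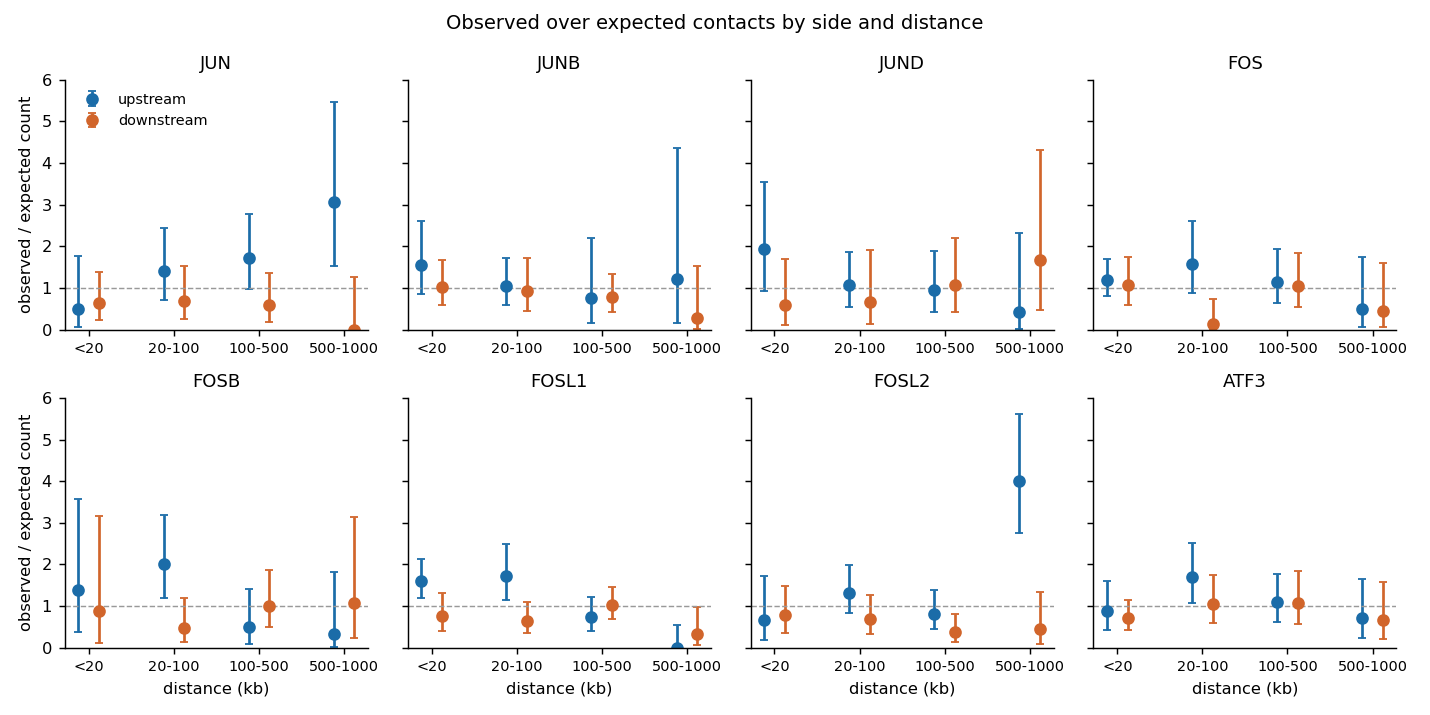
Each panel plots the observed over the expected count of 1 AP-1 gene in 4 distance bands in kb, upstream in blue and downstream in orange, with exact Poisson 95% intervals and a dashed line at 1. For ATF3 the side was taken from its upstream start site and the distance from the promoter anchor of each loop. The upstream band of 500 to 1000 kb reaches 4.00 at FOSL2 and 3.06 at JUN, while FOSL1 and FOSB are highest upstream within 100 kb.

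The contacts of related genes were read in the same way from 3 lists. Among 12 other zipper genes that can pair with AP-1 proteins, 3 had a strong loop at 20 kb or more, namely ATF2, MAFG and MAFK. Of the 9 with enough counts to be tested, 0 were called for distance or side. Over all genes the backgrounds were 11.7% for a strong distal loop, 0.0947% for distance and 2.44% for side. The small MAF genes MAFK with 102 summed counts, MAFG with 81 and MAFF with 69 were the highest in that list, and MAF had 0. Among the upstream regulators, SRF, which encodes serum response factor, had a strong distal loop and 129 summed counts. Of the 6 regulators tested, 0 were called for distance or side. Among 14 measured target genes of a list of 15, 6 had a strong distal loop, and 2 of the 13 tested were called for side. These were CCND1, which encodes cyclin D1, with 81.6% of counts upstream compared with 44.9% expected (exact binomial test, adjusted p = 1.97e-14), and DUSP5, a phosphatase of ERK, with 74.7% compared with 52.7% (exact binomial test, adjusted p = 0.0112). The median summed count was 83 over the AP-1 genes, 29.5 over the other zipper genes, 18 over the regulators and 44 over the targets, and per kb of promoter anchor the medians were 12.4, 8.48, 7.17 and 10.97.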

How the data were processed

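The data were 2 H3K27ac HiChIP libraries of HCT116 cells. Per the methods, the authors used MboI as the restriction enzyme, Hi-C-Pro for the valid fragment pairs and hichipper for the loops, and the submitters' processing notes name HiC-Pro and hg19. Tool versions and the source of the anchors are not given in the sources used here. The deposited values are raw counts of paired-end tags per anchor pair, without normalization or molecular identifiers, so intervals cover counting error only.

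Promoters followed GENCODE release 44 lifted to GRCh37, and ATF3 was given both of its start sites. Counts of an anchor with itself were left out. Distances are between anchor midpoints, and an anchor pair with any count is a loop. A strong loop had at least 5 summed counts. The expected count of each anchor pair came from 60 distance classes and anchor weights balanced in 20 rounds. For single loops, the own count of the pair was left out of the depth with an offset of 0.5. For shares per gene, distance bands and other sums over pairs, it was kept in the depth, which gives a higher expected count. Loops were tested with a one-sided Poisson test (adjusted p under 0.01), and shares per gene with at least 20 counts with a two-sided exact binomial test (adjusted p under 0.05), adjusted by the Benjamini-Hochberg method across every pair within 2 Mb or every gene. These tests treat counts as independent, as read pairs without identifiers need not be, so p-values are too small where they are not. On simulated counts of chromosome 1, a 10-fold rise was recovered in 19 of 200 pairs and a 20-fold rise in 104 of 200. Per gene, a 3-fold rise of distal counts was recovered in 31 of 60 genes and of upstream counts in 56 of 60. Genes without a simulated rise were also called, 11 in the distal run and 17 in the upstream run. At either fold, 3 unchanged pairs were called. The changed genes and pairs were drawn from those with higher counts or expected counts, so recovery at sparser ones was not tested. Intervals are 95%, exact Poisson for counts and Clopper-Pearson for shares. Python 3.11.15, numpy 2.4.6, pandas 2.3.3, scipy 1.17.1 and matplotlib 3.10.9 were used.

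The genes, lists and rules were chosen with earlier results of these data known. The loops named are the strong ones, the 3 highest by count from 20 kb and the highest from 100 kb per gene, and others given were chosen after their values were seen. Results on 1 regulator gene and 1 loop of JUN, and the sequence of 1 TRE site, are not reported here.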

Additional observations from a re-analysis of the deposited data

How the results depend on the processing

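The mean count per replicate over the 8 genes was 352 ± 32.5 (SD, n = 2). It was 310 with the start site ± 1 kb, 424.5 with ± 5 kb, 314 up to 500 kb, and 208 as loops in place of counts, and 329 to 375 with 1 replicate left out. The number of genes with a strong distal loop was 5, and it was 8 with a minimum of 3 counts (background 44.3% of genes), 2 with a minimum of 8 (2.67%) and 0 to 3 with 1 replicate left out (3.26% and 1.91%). The 15 loops above the expectation from distance alone became 6 to 8 with 1 replicate left out. Compared with distance alone, 2 genes were called for their distal share (background 3.44%), where 0 were called with depth (0.0947%). The 2 calls for side became 0 up to 500 kb and 1 compared with distance alone (background 5.29%), and 1 with either replicate left out. The TRE density of 0.236 per kb became 0.360 with a minimum of 8 counts and 0.359 to 0.387 with 1 replicate left out, and the CRE gave 0.0337 per kb. This CRE density rested on 3 sites. It was 0.00897 per kb in the partner anchors of other genes and 0.00444 over all anchors. The cause of these changes was not tested, and a single replicate also held fewer counts than the sum. No paired analysis was possible because there was 1 group. With 704 counts over 345 loops, depth limited single loops, most of which had 1 count.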

Other observations

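The AP-1 promoters had 252 further counts with anchors of the same chromosome more than 1 Mb away. Each was a loop of 1 count, so no contact at this range was seen more than once.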
